A study of Mus musculus with 6 samples.

Results

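The genes of the unfolded protein response and of protein folding in the endoplasmic reticulum (ER) were examined in intestinal epithelial cell preparations from mice with an inducible deletion of GGTase-Iβ. The list held 40 gene symbols, which name 39 genes because Selenos and Vimp are the same gene. It was drawn up from gene function, with earlier results of these data known, and a gene with several probe sets was read from the brightest of them by mean. All 39 were found among the 18193 genes with a single platform symbol, and 38 of them lay above 5 (log2) on at least 3 of the 6 arrays and were tested together with 8855 other genes. Derl3, a derlin of the degradation machinery, was not tested: it read 3.15, 3.09 and 3.13 in deficient replicates 1, 2 and 3, against 3.07, 3.09 and 3.14 in control replicates 1, 2 and 3, below that level on every array.

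Expression was measured on 6 Affymetrix arrays, 1 per mouse, in total RNA. The 3 GGTase-Iβ deficient mice carried a floxed Pggt-Iβ gene and the VillincreERT2 transgene, a tamoxifen-inducible recombinase under the control of an epithelial promoter. The 3 floxed control mice carried the same floxed gene without the transgene. Both groups were of a mixed 129/SV and C57BL/6 background, received 1 mg of tamoxifen on each of 3 days, and were sampled on day 6 from the first dose. The recombinase itself was therefore present in the deficient group alone, and its own effect cannot be told apart from that of the deletion. The sex and age of the mice, the part of the intestine and any processing batch do not appear in the labels. Values are log2 expression values deposited by the authors, and changes are given as deficient minus control on that log2 scale unless a fold is named.

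Proteins that enter the ER through the Sec61 channel are folded by chaperones and by enzymes that form disulfide bonds, and those that fail are sent back to the cytosol for degradation. When unfolded proteins accumulate, the membrane sensors IRE1 (Ern1), PERK (Eif2ak3) and ATF6 (Atf6) signal to the nucleus. IRE1 splices the Xbp1 messenger RNA, and the resulting transcription factor together with cleaved ATF6 raises transcription of chaperone and degradation genes. Secretory cells of the gut, above all Paneth and goblet cells, depend on this response. Much of its control acts by splicing, cleavage and phosphorylation, which the total level of a transcript does not report.

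The DNA element through which ATF6 and XBP1 act at many of these genes is shown first, because it is a feature of some members that was read without their expression. The ER stress element was searched as CCAAT, then any 9 bases, then CCACG, on both strands of the RefSeq promoter sequences (GRCm38.p6), from 250 bases before to 50 bases after each transcript start. Of the 33 members with such a sequence, 10 held the element (30.3%), against 37 of all 27025 genes with a promoter sequence (0.137%), these 10 among them. The members were chosen as genes of this response, so their higher share is a description and was not tested. The sites are printed in the direction of the element, with its fixed bases in capitals and 5 flanking bases on either side.
Calr (chr8:84847070-84847098, plus strand): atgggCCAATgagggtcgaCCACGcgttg
Canx (chr11:50325795-50325823, minus strand): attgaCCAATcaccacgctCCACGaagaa
Creld2 (chr15:88819515-88819543, minus strand): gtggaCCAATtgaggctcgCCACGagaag
Derl3 (chr10:75893237-75893265, minus strand): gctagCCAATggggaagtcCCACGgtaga
Dnajc3 (chr14:118937822-118937850, plus strand): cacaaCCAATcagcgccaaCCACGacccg
Ero1b (chr13:12565677-12565705, minus strand): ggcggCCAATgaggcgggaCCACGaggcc
Hsp90b1 (chr10:86705528-86705556, plus strand): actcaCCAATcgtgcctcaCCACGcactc
Hsp90b1 (chr10:86705633-86705661, minus strand): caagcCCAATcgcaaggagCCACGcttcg
Hspa5 (chr2:34772020-34772048, plus strand): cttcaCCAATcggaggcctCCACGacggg
Pdia6 (chr12:17266486-17266514, plus strand): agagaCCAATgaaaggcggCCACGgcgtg
Syvn1 (chr19:6046527-6046555, plus strand): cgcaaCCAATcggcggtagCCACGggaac
Hsp90b1 held a pair of sites in opposite directions. The shorter form, searched as ATTGG, then any 1 base, then CCACG, was found in 2 members and in 12 genes in all (0.0444%).
Dnajb11 (chr16:22857847-22857867, plus strand): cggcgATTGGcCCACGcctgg
Herpud1 (chr8:94386372-94386392, plus strand): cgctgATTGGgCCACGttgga
The Dnajb11 site lay within the 50 bases after the start. The element searched as TGACGTGG, known as the UPR element, was found in 0 of the 33 members and in 0.714% of all genes.

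The promoter of Hspa5, which encodes the chaperone BiP and is the standard reporter gene of this response, is given for context (chr2:34771840-34772089, plus strand, the 250 bases before the start), with the fixed bases of its exact ER stress element in capitals.
Hspa5 promoter: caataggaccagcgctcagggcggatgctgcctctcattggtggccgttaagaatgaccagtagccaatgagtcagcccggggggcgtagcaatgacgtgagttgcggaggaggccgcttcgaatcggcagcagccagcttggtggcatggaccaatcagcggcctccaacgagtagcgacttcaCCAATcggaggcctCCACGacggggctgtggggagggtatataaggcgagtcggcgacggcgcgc

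The arrays were alike in range, with 35.6% to 36.5% of probe sets above 5. Pggt1b, which encodes GGTase-Iβ, read 9.75, 8.88 and 8.83 in deficient replicates 1, 2 and 3, against 9.30, 9.55 and 9.33 in control replicates 1, 2 and 3. The groups overlapped and the difference of -0.24 ± 0.27 (SE) did not pass (limma adjusted p = 0.678). The labels do not say where its probe set lies relative to the deleted part, so it checks nothing and the groups are taken as labelled. The epithelial label was borne out by defining markers: all 11 enterocyte markers found on the array and all 8 goblet markers were above the level for testing. T cell and intraepithelial lymphocyte markers were present too and differed between the groups. All 12 such genes had all deficient arrays below all controls, with a median change of -3.27, and 10 of them passed the test. The log2 of their summed level was 10.72 to 12.75 in deficient mice and 14.60 to 14.98 in controls. The 10 myeloid markers tested all averaged lower in the deficient mice, 6 of them with all deficient arrays below all controls, and 4 passed. All 12 on the array had summed levels of 10.99 to 11.76 in deficient mice and 11.99 to 12.90 in controls. Of 5 stromal markers tested 0 passed, and they did not move together. Col1a2, Col3a1 and Vim were at -1.69, -1.74 and -1.07 with all deficient arrays below all controls. Dcn and Acta2 were at 0.13 and 0.06 with overlapping groups. All 9 stromal markers on the array summed to 10.24 to 10.94 in deficient mice and 10.99 to 12.15 in controls. In whole preparations of this kind, fewer cells of a type and less RNA per cell cannot be told apart.

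No member of the ER folding and unfolded protein response list passed the test. Of the 38 tested, 0 were called in either direction (limma, Benjamini-Hochberg over all 8893 genes, threshold 0.05), while 186 of all genes tested were called (2.09%), 10 of them higher (0.112%) and 176 lower (1.98%). With any 1 array left out the members' count stayed at 0, and that over all genes ran from 93 without control replicate 1 to 239. The smallest adjusted p among the members was 0.164, for Dnajc10. At an unadjusted limma p under 0.05 there were 5 members (13.2%), Ero1a, Dnajc10, Eif2ak3 and Ssr1 averaging higher and Derl1 lower, against 16.9% of all genes tested. By direction these were 10.5% of members higher and 2.63% lower, against 5.60% and 11.3% of all genes. The pooled share of 13.2% is near the 16.9% of all genes and is not a result about the members. The shares by direction differ from those of all genes, but they rest on 4 members higher and 1 lower and were not tested.

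The intervals of the changes say how large a difference the arrays leave room for. For 26 of 38 members (68.4%) the 95% interval of the fitted change lay within 2-fold in either direction, as it did for 64.6% of all genes tested. For 36 members (94.7%) it lay within 4-fold, against 92.2% of all genes tested, the exceptions being Ero1a and Ero1b. The intervals are not adjusted for the number of genes. The median spread between mice of 1 group was 0.27 (SD, log2) for the members and 0.28 for all genes tested, so the members were measured about as precisely as other genes.

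**Figure D1:**
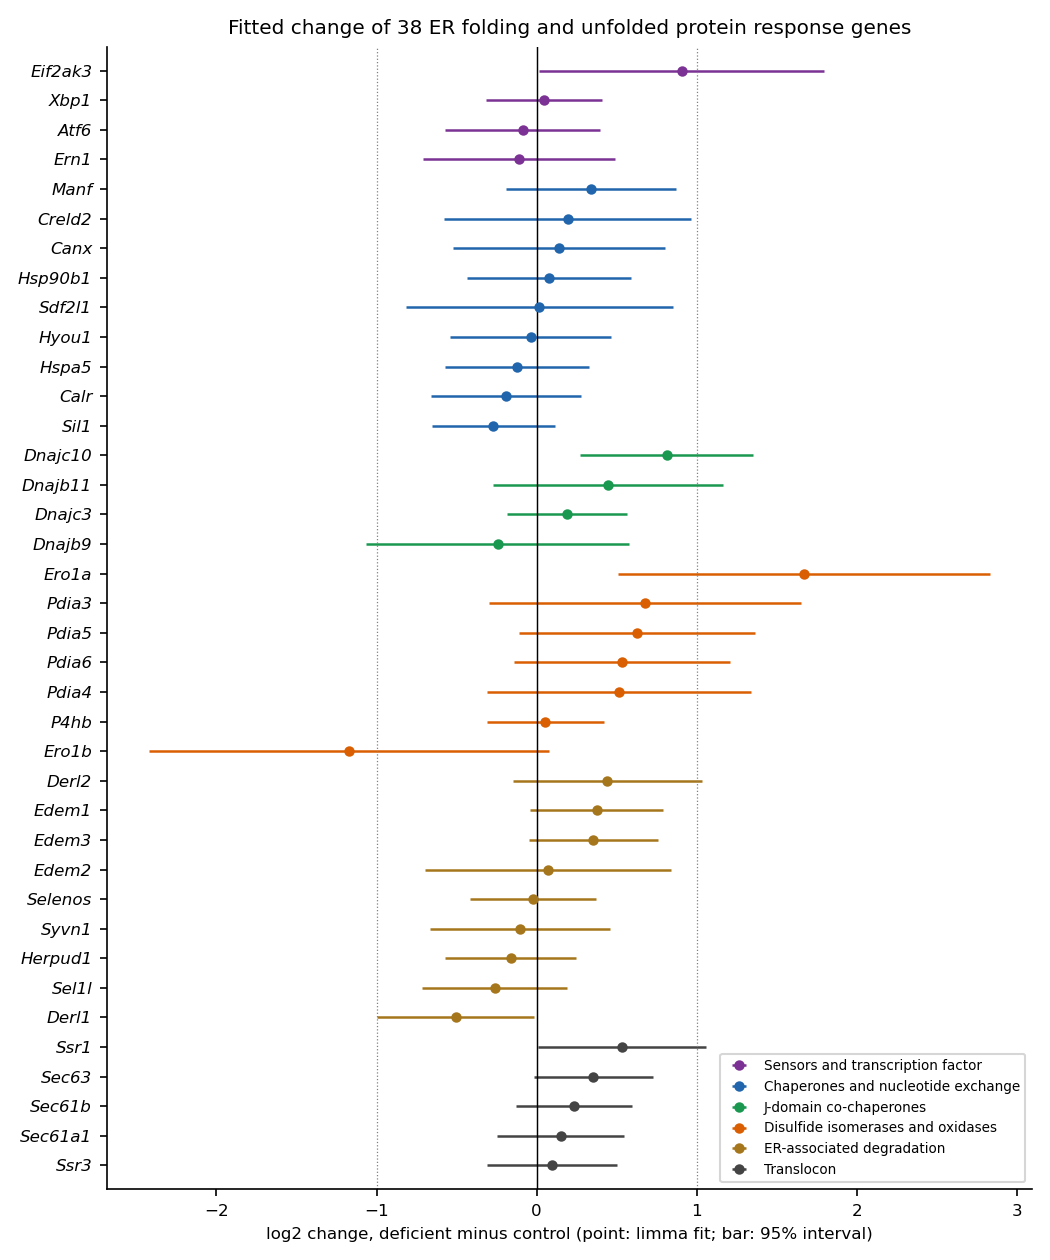
Fitted log2 change (deficient minus control) of the 38 tested members, grouped by role, with points for the limma fit and bars for its 95% interval; dotted lines mark 2-fold either way. Most intervals cross 0, the chaperones lie between -0.27 and 0.34, and the widest intervals are those of Ero1a and Ero1b.

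By direction alone more members averaged higher than lower in the deficient mice, a count that depended on single arrays and on weighting. The fitted change was above 0 for 25 of 38 members (65.8%), against 45.4% of all genes tested, and the median change was 0.12, against -0.04. In 10 members (26.3%) all 3 deficient arrays lay above all 3 controls, against 9.00% of all genes tested, and in 1 member (2.63%) they lay below, against 16.7%. These counts are a description without a test, since the genes of 1 pathway are not independent and share the same 6 mice. Without control replicate 2 the members' median change was 0.02, against -0.066 for all genes tested, with 20 of 38 members above 0. Without control replicate 3 it was 0.25, against -0.045, with 30 above 0. Separated groups with the deficient arrays higher then numbered 10 and 18 of 38, against 12.1% and 12.6% of all genes tested. With array weights 19 of 38 members were above 0 and the median was -0.0018, against -0.046 for all genes tested.

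The sensors and their transcription factor come first. Xbp1, the target of IRE1 splicing, read 13.36, 13.22 and 13.29 in deficient replicates 1, 2 and 3, against 13.22, 13.12 and 13.37 in control replicates 1, 2 and 3. Its 6 values lay within a narrow band and the groups overlapped, with a change of 0.05 ± 0.15 (SE), a 95% interval of -0.32 to 0.41 and a limma adjusted p of 0.89. Eif2ak3, the kinase PERK that slows translation by phosphorylating eIF2α, read 10.36, 9.30 and 8.96 in deficient replicates 1, 2 and 3, against 8.62, 8.33 and 8.95 in control replicates 1, 2 and 3. The groups were separated by the gap between deficient replicate 3 and control replicate 3 alone, which round to 8.96 and 8.95. The change was 0.91 ± 0.38 (SE, limma adjusted p = 0.289), and it was 0.49 without deficient replicate 1, the highest of the 6 arrays. Atf6 read 7.48, 7.76 and 7.38 on the deficient arrays and 7.70, 7.32 and 7.85 on the control arrays. Ern1 and Atf6, the other sensors, changed by -0.11 and -0.09 with overlapping groups (limma adjusted p = 0.843 and 0.847), and each turned sign when 1 array was left out.

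Of the 9 ER chaperones and exchange factors 0 passed, with fitted changes between -0.27 and 0.34. Hspa5 read 14.28, 14.23 and 14.25 in deficient replicates 1, 2 and 3, against 14.55, 14.04 and 14.54 in control replicates 1, 2 and 3. The deficient arrays were nearly identical and lay inside the range of the controls, with means of 14.25 ± 0.02 in deficient mice and 14.38 ± 0.29 in controls (SD, n = 3 each). The change of -0.12 ± 0.19 (SE) corresponds to 0.918-fold (95% interval 0.673 to 1.25) with limma adjusted p = 0.759, so a rise of Hspa5 beyond 1.25-fold lies outside its interval.

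Hsp90b1 (GRP94), the ER member of the HSP90 family, read 13.63, 13.22 and 13.49 on the deficient arrays and 13.50, 13.01 and 13.59 on the control arrays, a change of 0.08. Canx, a membrane lectin that holds newly made glycoproteins, read 13.13, 13.51 and 13.56 on the deficient arrays and 13.51, 12.68 and 13.58 on the control arrays, a change of 0.14. It was -0.15 without control replicate 2, the lowest array, and Hsp90b1 was then at -0.10. Calr, its soluble counterpart, changed by -0.19, and the groups overlapped for each of these.

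Manf, a BiP-binding protein that is released on ER stress, had the largest fitted change of the chaperone group. It read 11.74, 11.93 and 11.84 on the deficient arrays and 11.50, 11.11 and 11.88 on the control arrays, with control replicate 3 inside the deficient range, and the change of 0.34 ± 0.22 (SE) did not pass (limma adjusted p = 0.46). It was 0.15 without control replicate 2 and 0.53 without control replicate 3. Sil1, an exchange factor that frees BiP of ADP, was the 1 member with all deficient arrays below all controls. It read 6.91, 6.75 and 6.67 on the deficient arrays and 7.19, 6.93 and 7.03 on the control arrays, a change of -0.27 ± 0.16 (SE, limma adjusted p = 0.421). Hyou1, the other exchange factor of BiP, read 7.59, 7.88 and 8.07 on the deficient arrays and 7.74, 7.72 and 8.20 on the control arrays, a change of -0.04. The stress-induced Sdf2l1 and Creld2 changed by 0.02 and 0.19, all 3 with overlapping groups. For Hyou1 and Sdf2l1 the sign depended on which arrays entered, and Creld2 was at -0.21 with array weights.

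Among the J-domain co-chaperones, which bring clients to BiP, Dnajc10 had the largest fitted change. Dnajc10 (ERdj5) is also a disulfide reductase that opens misfolded proteins for export. It read 9.60, 9.86 and 9.38 in deficient replicates 1, 2 and 3, against 8.98, 8.42 and 9.00 in control replicates 1, 2 and 3. All deficient arrays lay above all controls, with means of 9.61 ± 0.24 in deficient mice and 8.80 ± 0.33 in controls (SD, n = 3 each), or 1.76-fold (95% interval 1.21 to 2.55). The change of 0.81 ± 0.23 (SE) had the smallest adjusted p of the members and still did not pass (limma adjusted p = 0.164, and 0.138 to 0.409 when any 1 array was left out). Its other probe sets pointed the same way, at 0.89 and 1.40, the last of them near the level 5.

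Dnajb9 (ERdj4), a gene strongly driven by XBP1 in other settings, read 11.76, 10.92 and 11.79 on the deficient arrays and 11.19, 11.77 and 12.24 on the control arrays. The groups overlapped, deficient replicate 2 being lowest and control replicate 3 highest, and the change was -0.24 ± 0.35 (SE) (limma adjusted p = 0.739). Dnajc3 read 11.10, 10.93 and 11.14 on the deficient arrays and 10.77, 10.82 and 10.999 on the control arrays. Dnajb11 (ERdj3) changed by 0.44 and Dnajc3 (P58IPK) by 0.19, with limma adjusted p of 0.478 and 0.552. The Dnajb11 value was 0.12 without control replicate 2, and Dnajc3 was at -0.53 from its most variable probe set.

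The thiol oxidases and disulfide isomerases held the widest differences of the whole list, in both directions. Ero1a, the ubiquitous oxidase that recharges protein disulfide isomerase and is also known to respond to low oxygen, read 12.19, 10.36 and 10.40 in deficient replicates 1, 2 and 3, against 9.16, 9.19 and 9.58 in control replicates 1, 2 and 3. All deficient arrays lay above all controls, and deficient replicate 1 lay far above the other two. The change of 1.67 ± 0.49 (SE) corresponds to 3.18-fold (95% interval 1.42 to 7.12) and did not pass (limma adjusted p = 0.181). Without deficient replicate 1 it was 1.07 with an adjusted p of 0.0714, the smallest that any member reached under any alternative. The other Ero1a probe sets changed by 0.92 and 1.13.

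Ero1b, the paralog best known from secretory cells such as those of the pancreas, differed in the other direction. It read 6.05, 7.40 and 8.14 in deficient replicates 1, 2 and 3, against 7.91, 8.85 and 8.34 in control replicates 1, 2 and 3. Deficient replicates 1 and 2 lay below all controls, while deficient replicate 3 lay between them. The change of -1.17 ± 0.53 (SE) had a limma adjusted p of 0.317 and was -0.60 without deficient replicate 1. Ero1b is described here after its values were seen. Deficient replicate 1 thus had the highest Ero1a and the lowest Ero1b of the 6 arrays.

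**Figure D2:**
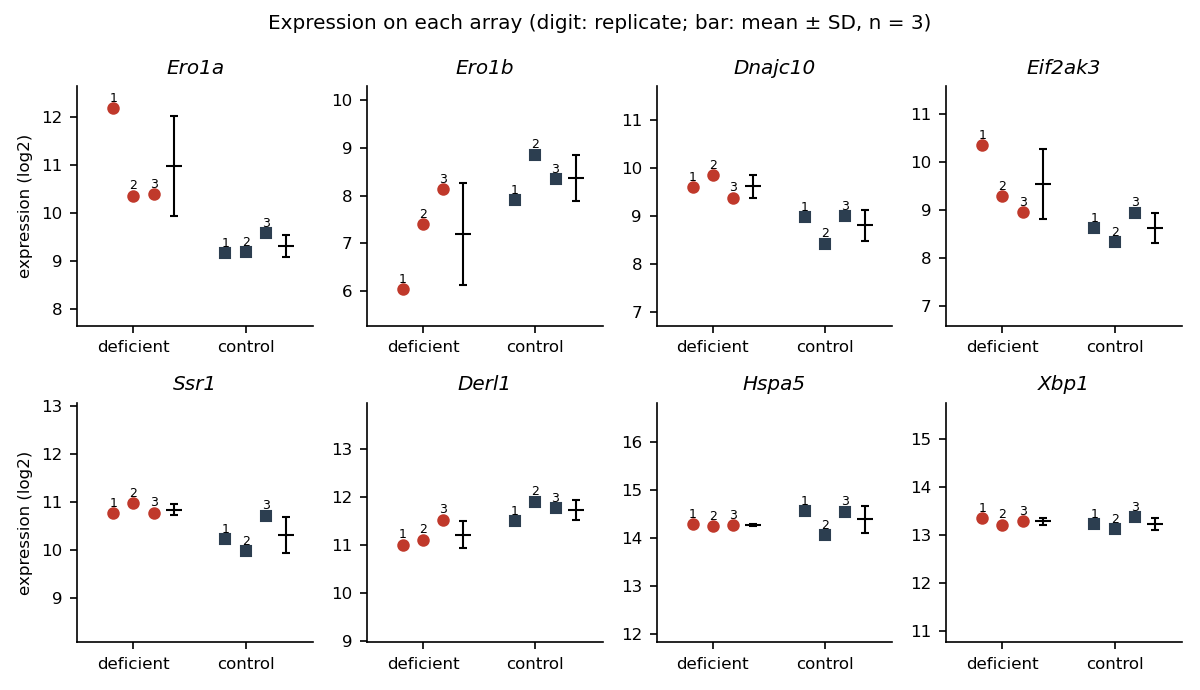
Log2 expression of 8 members on each array, deficient (circles) left of control (squares), with the replicate number over each point and the mean ± SD (n = 3) beside each group; every panel spans the same number of log2 units. Ero1a, Dnajc10, Eif2ak3 and Ssr1 show separated groups, deficient replicate 1 is the extreme value for Ero1a, Ero1b and Eif2ak3, and Hspa5 and Xbp1 overlap.

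The isomerases proper, which form and rearrange disulfide bonds, averaged higher in the deficient mice in each case without passing. P4hb, protein disulfide isomerase itself, read 14.18, 14.25 and 14.06 on the deficient arrays and 13.99, 14.14 and 14.20 on the control arrays, a change of 0.05 ± 0.15 (SE) with overlapping groups (limma adjusted p = 0.874). Pdia5 read 7.38, 7.54 and 7.48 on the deficient arrays and 7.26, 6.12 and 7.14 on the control arrays, and Pdia6 (P5) read 9.34, 9.74 and 9.52 on the deficient arrays and 9.30, 8.39 and 9.31 on the control arrays. In both, all deficient arrays lay above all controls and control replicate 2 was far below the other two controls. Their changes were 0.63 ± 0.31 (SE) and 0.53 ± 0.28 (SE), with limma adjusted p of 0.35 and 0.382, and 0.27 and 0.23 without control replicate 2. Pdia3 (ERp57), the partner of calnexin and calreticulin, and Pdia4 (ERp72) changed by 0.68 and 0.51 with overlapping groups, and by 0.23 and 0.11 without that array.

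Genes of ER-associated degradation went both ways by mean. Of the 9 tested, 4 averaged higher and 5 lower in the deficient mice, with a median of -0.02. Derl1, a derlin of the export channel, read 11.01, 11.11 and 11.53 in deficient replicates 1, 2 and 3, against 11.49, 11.90 and 11.77 in control replicates 1, 2 and 3. Deficient replicates 1 and 2 lay below all controls and deficient replicate 3 just above control replicate 1. The change of -0.51 ± 0.21 (SE) did not pass (limma adjusted p = 0.285), and 1 of its 4 probe sets above the level for testing pointed the other way, at 0.22. Derl2, its relative, changed by 0.44.

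Edem1 and Edem3, mannosidase-like proteins that mark misfolded glycoproteins for disposal, had all deficient arrays above all controls. Edem1 read 11.09, 11.08 and 11.06 on the deficient arrays and 10.56, 10.57 and 10.98 on the control arrays, and Edem3 read 11.09, 10.98 and 10.97 on the deficient arrays and 10.46, 10.64 and 10.88 on the control arrays. The deficient values of Edem1 spanned a few hundredths, the controls far more, and control replicate 3 came close to the deficient arrays in both genes. The changes were 0.37 ± 0.17 (SE) and 0.35 ± 0.17 (SE) (limma adjusted p = 0.329 and 0.34), and a second Edem1 probe set was at -0.04. Edem2 changed by 0.07, and by -0.27 without control replicate 2.

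Of the ubiquitin ligase complex and its partners 0 passed. Sel1l read 9.94, 10.07 and 10.23 on the deficient arrays and 10.07, 10.36 and 10.60 on the control arrays. Syvn1 (HRD1), the ligase, changed by -0.10, its partner Sel1l by -0.26 and the scaffold Herpud1 by -0.16, with limma adjusted p of 0.843, 0.505 and 0.651. The direction was not settled for Sel1l, whose other 2 probe sets above the level for testing were both at 0.35, nor for Syvn1, at 0.10 without control replicate 3. Selenos, a selenoprotein that recruits the p97 ATPase, read 11.96, 11.81 and 12.11 on the deficient arrays and 11.83, 12.03 and 12.10 on the control arrays, a change of -0.02 ± 0.17 (SE) (limma adjusted p = 0.952). All of these had overlapping groups.

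All 5 translocon genes averaged higher in the deficient mice, by 0.10 to 0.53, and 0 passed. Ssr1, a subunit of the translocon-associated protein complex, read 10.77, 10.98 and 10.79 in deficient replicates 1, 2 and 3, against 10.24, 9.98 and 10.72 in control replicates 1, 2 and 3. The deficient arrays lay above all controls, with control replicate 3 close beneath them, and the change of 0.53 ± 0.22 (SE) had a limma adjusted p of 0.293. Sec63, a J-domain protein that couples BiP to the channel, read 9.82, 9.86 and 9.69 on the deficient arrays and 9.28, 9.52 and 9.51 on the control arrays, and Sec61b, the beta subunit of the channel, read 12.18, 12.22 and 12.32 on the deficient arrays and 12.07, 11.87 and 12.08 on the control arrays. Both had separated groups, with changes of 0.35 ± 0.16 (SE) and 0.23 ± 0.15 (SE) (limma adjusted p = 0.312 and 0.458). Ssr3 read 12.32, 12.43 and 12.52 on the deficient arrays and 12.25, 12.17 and 12.56 on the control arrays and changed by 0.10, and Sec61a1, the pore-forming subunit, changed by 0.15, both with overlapping groups.

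**Figure D3:**
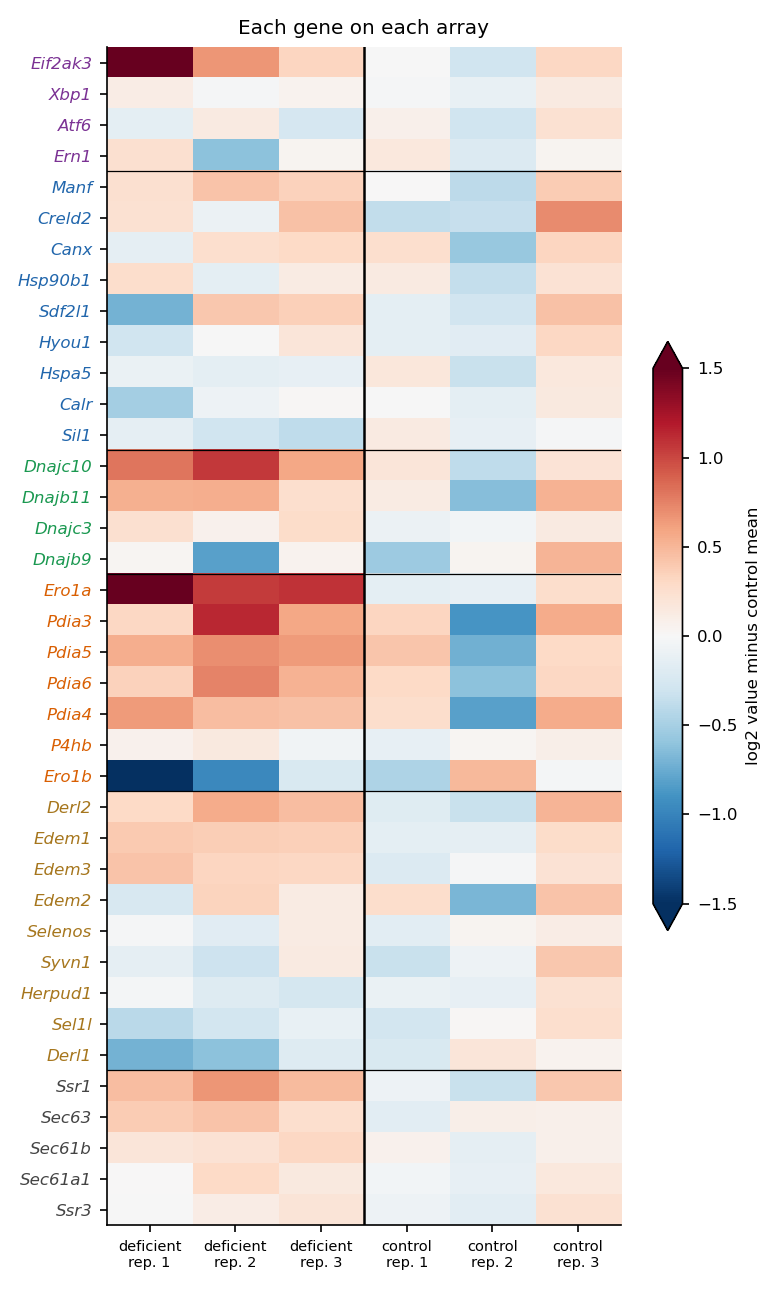
Log2 value of each of the 38 tested members on each array, minus the mean of the controls (colour, clipped at 1.5 either way), deficient arrays left of the line and controls right of it, genes ordered by role and fitted change. The rows of Pdia3, Pdia4, Pdia5, Pdia6 and Dnajb11 are bluest in control replicate 2, and Ero1a, Ero1b and Eif2ak3 stand out in deficient replicate 1.

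The level of the members varied between the controls. The mean level of the 38 members, relative to the control mean, was 0.14, 0.17 and 0.21 in deficient replicates 1, 2 and 3, against -0.03, -0.24 and 0.27 in control replicates 1, 2 and 3. The 3 deficient arrays thus lay inside the range of the controls, between control replicates 1 and 3. Control replicate 2 was the lowest of the 6 arrays for 19 of 38 members (50%), against 25.7% of all genes tested, and control replicate 3 the highest for 13 (34.2%), against 12%. The disulfide group was at 0.35, 0.47 and 0.43 in the deficient arrays and 0.08, -0.38 and 0.29 in the controls.

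**Figure D4:**
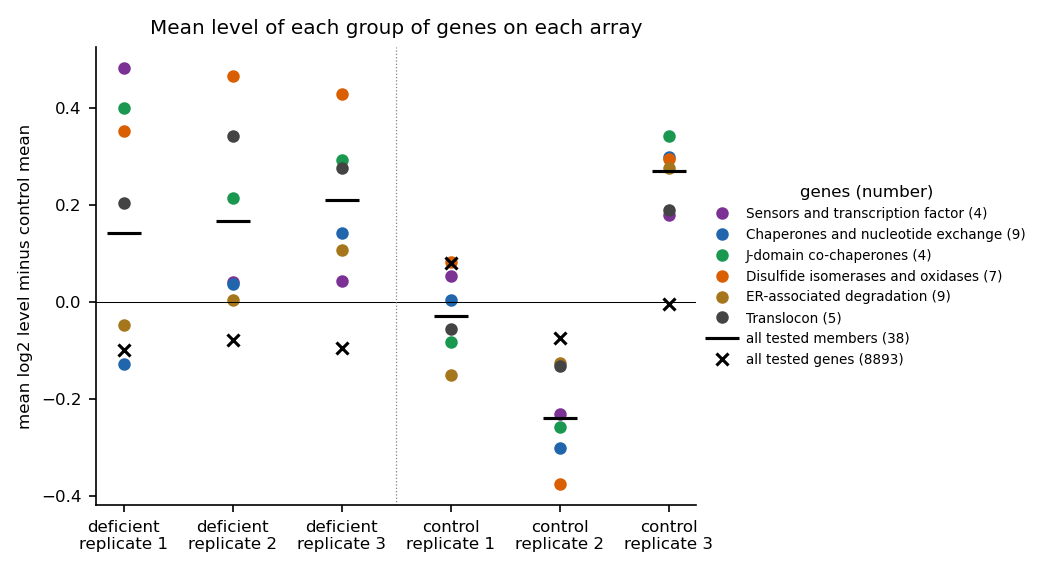
Mean log2 level of the members of each role on each array, minus the control mean, with all tested members (bars) and all 8893 tested genes (crosses); deficient arrays are left of the dotted line. All tested members sit at 0.14 to 0.21 on the deficient arrays, and the controls run from -0.24 in replicate 2 to 0.27 in replicate 3.

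Summed marker levels of cells rich in ER, and of stem and cycling cells, overlapped between the groups, while some single markers did not. The summed level of the 6 Paneth markers was 14.38 to 15.07 (log2) in deficient mice and 13.38 to 15.31 in controls, lowest in control replicate 2, and 0 of 6 passed, with Mmp7 higher on all deficient arrays. That of the 8 goblet markers was 17.02 to 17.10 in deficient mice and 16.82 to 17.33 in controls, highest in control replicate 2, and 0 of 8 passed, with Spdef and Spink4 higher and Fcgbp lower on all deficient arrays. The 7 stem and cycling cell markers summed to 12.54 to 13.96 in deficient mice and 11.01 to 13.35 in controls, again lowest in control replicate 2. Lgr5 and Ascl2 lay below 5 on all arrays. The 5 tested all averaged higher in the deficient mice, with a median change of 0.94, but each had overlapping groups and 0 passed. Of 12 B and plasma cell markers 8 lay below 5 on all arrays, among them Mzb1, Tnfrsf17 and Irf4. Jchain, which joins secreted antibody chains, was present and read 8.61, 7.59 and 9.35 on the deficient arrays and 9.58, 10.83 and 10.01 on the control arrays, all deficient arrays below all controls, a change of -1.62 ± 0.50 (SE, limma adjusted p = 0.192). The summed level of the list, 12.31 to 13.06 in deficient mice and 12.60 to 12.68 in controls, was carried by Sdc1, which read 12.89, 12.30 and 12.03 on the deficient arrays and 12.44, 12.05 and 12.32 on the control arrays. Of the 3 markers of this list that were tested, only Jchain averaged lower. Sdc1 and Prdm1 changed by 0.13 and 1.01 with overlapping groups (limma adjusted p = 0.808 and 0.316). The part of these cell types, and of the lymphocyte, myeloid and stromal cells above, in the members' values was not tested.

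Probe sets of the same gene did not always point the same way. The 39 members had 100 probe sets with a single symbol, of which 80 lay above the level for testing. In 22 genes more than 1 probe set did so, and in 11 of these the probe sets disagreed in direction: Atf6, Canx, Derl1, Dnajc3, Edem1, Hsp90b1, Hyou1, Sec63, Sel1l, Selenos and Xbp1. The 4 of Xbp1 ran from -0.11 to 0.32 and the 5 of Sec63 from -0.13 to 0.61. All probe sets of Ero1a, Dnajc10, Hspa5 and Calr above that level agreed in direction.

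Members with and without an ER stress element of either form were set side by side. The 11 tested carriers had a median change of 0.08, with 6 above and 5 below 0, between -1.17 (Ero1b) and 0.53 (Pdia6). The 21 tested members whose promoter sequence held neither form had a median of 0.35, with 17 above and 4 below 0, and included Ero1a, Dnajc10, Eif2ak3 and Ssr1. The other 6 tested members, Derl1 among them, had no promoter sequence to search and a median of -0.06, with 2 above and 4 below 0. In each of these sets 0 were called, and the differences between them were not tested. An absent match says only that these letters are not in the window searched.

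The wider secretory pathway gave the same count. Of 112 further genes found on the array, 104 were tested and 0 were called in either direction, with 7 at an unadjusted limma p under 0.05 (6.73%, against 16.9% of all genes tested) and a median change of 0.02. Groups were separated in 12 genes (11.5%) with the deficient arrays higher, against 9.00% of all genes, and in 12 with them lower, against 16.7%. Among 19 genes of stress signalling, 5 averaged higher and 14 lower. Wfs1, an ER membrane protein, read 6.09, 7.30 and 7.28 on the deficient arrays and 7.71, 8.07 and 8.16 on the control arrays, all deficient arrays below all controls, a change of -1.08 ± 0.35 (SE) (limma adjusted p = 0.205). The stress genes Chac1 and Ppp1r15a, both downstream of eIF2α phosphorylation, were at 1.09 and -0.87 (limma adjusted p = 0.346 and 0.377). Chac1 read 3.53 in control replicate 2, below the level 5, and its change was as low as 0.45 when 1 array was left out. Atf4, Ddit3, Trib3 and Atf3 of the same list were at -0.005, -0.06, -0.27 and -0.61, all with overlapping groups (limma adjusted p between 0.408 and 0.991).

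Among 18 genes of transport between ER and Golgi, the cargo receptors and a retrieval receptor differed in opposite directions by mean. Kdelr3, which returns escaped ER proteins, read 6.82, 7.001 and 6.19 on the deficient arrays and 4.68, 5.14 and 6.09 on the control arrays, with control replicate 1 below the level 5, and changed by 1.37 ± 0.39 (SE) (limma adjusted p = 0.176). Lman1 and Lman2, lectins that carry glycoproteins onward, changed by -0.66 ± 0.21 (SE) and -0.79 ± 0.24 (SE) with all deficient arrays below all controls (limma adjusted p = 0.202 and 0.188).

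Other folding enzymes, 16 tested, included Agr2, a disulfide isomerase of goblet cells needed for mucin folding. It read 12.40, 12.99 and 12.56 on the deficient arrays and 12.34, 11.39 and 11.79 on the control arrays, all deficient arrays above all controls, a change of 0.81 ± 0.29 (SE, limma adjusted p = 0.235). The membrane thioredoxins Tmx4 and Tmx1 were at -0.77 and -0.47, the first of them with the smallest adjusted p of the 104 (0.143). In the further translocon and signal peptidase genes, 19 tested, Sec11a, a catalytic subunit of signal peptidase, was at 0.39, Sec62 at -0.43 and Srp19 at 0.32. In N-glycosylation, 15 tested, the glucosidase subunit Ganab was at -0.47 and the oligosaccharyltransferase subunits Rpn1 and Dad1 at 0.28 and 0.26. In the further degradation genes, 17 tested, the conjugating enzyme Ube2g2 was at 0.43 and the p97 cofactors Faf2 and Ubxn4 at -0.32 and 0.30, the last of them at -0.27 from its most variable probe set. Limma adjusted p for these genes from Sec11a on lay between 0.272 and 0.488.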

How the data were processed

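Total RNA of 6 mice, 3 per group, was measured on 6 arrays. The authors deposited log2 expression values per probe set; Partek 6.5 and GCRMA are named, without a role, per the submitters' processing notes. The log2 scale was inferred from values between 0.42 and 16.4, with array medians of 3.26 to 3.33. With GCRMA, dim probe sets collect at low values, and differences there follow its background step. Precision is limited by there being 6 arrays.

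Of 45101 probe sets, 64 controls were left out, and 34945 had 1 platform symbol, 932 several and 9160 none. Each of 18193 genes was represented by its probe set of highest mean. Genes that exceeded 5 (log2) on 3 or more arrays, 8893 in all, entered limma 3.58.1 in R 4.3.3 (lmFit, eBayes, no covariate, two-sided), with Benjamini-Hochberg adjustment over all of them. The fit was also run on simulated data with added changes of 1 to 3 (log2) in size, which does not cover the smaller changes of most members. A two-sided permutation test of 3 against 3 could reach 0.1 at best.

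Members and lists were chosen with earlier results of these data known. Of 40 member symbols, 3 were renamed through synonyms, as was 1 of 117 wider pathway entries, 112 of which were on the array. Values on every array are given for members with separated groups or an unadjusted p under 0.05, for those whose probe sets disagree in direction, and in each role for the member with the highest mean and that with the largest change. In each wider list the 3 genes with the smallest p are named, and Atf4, Ddit3, Trib3 and Atf3 are added for stress signalling. No pairing of mice by replicate number was assumed. Deviations of same-numbered arrays correlated at 0.05, -0.29 and 0.00, and those of differently numbered arrays at -0.29 to 0.24. With 3 arrays per group these values cannot show whether the numbers pair the mice.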

Additional observations from a re-analysis of the deposited data

How the results depend on the processing

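Under all 18 alternatives (variance moderation, array weights, filters, normalization, probe set handling, replicate block, each array left out) 0 members were called, and 2 to 9 had an unadjusted limma p under 0.05. The members' median change ran from -0.0018 with array weights to 0.23 with the most variable probe set, and from 0.02 to 0.25 when 1 array was left out. Of 1006 values of 57 genes (Pggt1b, the 38 members and 18 wider pathway genes), 34 changed sign, in 16 members and in Ubxn4, all without a call, and the cause was not tested. The changed signs were Xbp1 -0.051, Creld2 -0.21, Hsp90b1 -0.11, Sdf2l1 -0.022, Edem2 -0.097 and Ssr3 -0.0075 with array weights; Xbp1 -0.058 and Hyou1 0.0073 without the designs ending _x_at, _s_at and _a_at; Hsp90b1 -0.011, Dnajc3 -0.53 and Ubxn4 -0.27 from the most variable probe set; Dnajc3 -0.13, Sel1l 0.28 and Selenos 0.0034 as the mean over probe sets. Others turned when 1 array was left out, with ranges over the 6 such fits of Atf6 -0.24 to 0.026, Ern1 -0.28 to 0.14, Xbp1 -0.012 to 0.11, Canx -0.15 to 0.30, Hsp90b1 -0.098 to 0.19, Hyou1 -0.15 to 0.12, Sdf2l1 -0.17 to 0.38, Dnajb9 -0.52 to 0.042, P4hb -0.0059 to 0.11, Edem2 -0.27 to 0.28, Selenos -0.10 to 0.051 and Syvn1 -0.27 to 0.098. Over all genes, 186 calls (10 higher, 176 lower) became 293 (33 higher) with array weights, 85 (0 higher, 85 lower) with no filter, which tests more genes, and 117 (6 higher, 111 lower) with probe sets averaged. Leaving out 1 array gave 93 to 239 calls, 3 to 36 higher and 88 to 203 lower. The replicate block gave 141 calls over all genes and 0 members, and whether the numbers pair the mice is not known. Leaving out 1 array, an alternative added after seeing the data, gave 10 to 18 members with all deficient arrays above the controls, 18 of them without control replicate 3, and 1 to 4 below, 4 of them without deficient replicate 3 or control replicate 1. With 1 array fewer such separation is easier to reach: for all genes tested the shares were then 11.5% to 17.6% higher and 20.4% to 24% lower.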

Other observations

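Outside the list, 37 genes held an ER stress element of either form in the promoter window, and 8 of them were tested. Their changes lay between -0.31 (Lrif1) and 0.61 (Rcl1), with a median of -0.05, and limma called 0 of the 8, with 0 at an unadjusted p under 0.05. Nucb1, a calcium-binding protein of the Golgi, was among them at 0.08 and Krtcap2, an oligosaccharyltransferase subunit, at -0.11.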
